A study of Rattus norvegicus with 6 samples.

Results

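The miR-23, miR-27 and miR-24 microRNAs (miRNAs) of the rat come from a pair of gene clusters, Mir23a, Mir27a and Mir24-2 on chromosome 19 and Mir23b, Mir27b and Mir24-1 on chromosome 17. The members described here are every arm of these hairpins with its own miRNA probes on the array. There were 11 such arms with 30 probes, out of 719 rat miRNAs with 1730 probes. Of these, 5 belong to the chromosome 19 cluster alone, 5 to the chromosome 17 cluster alone, and miR-24-3p is made by both. They were measured in rat primary skeletal muscle cells (RSkMC), isolated from limb muscle of neonates and frozen at the second passage. All cultures were differentiated for 11 days in medium with 2% horse serum. The control group (n = 3 arrays) carried no agent by its labels, and the treated group (n = 3 arrays) was given 1 ng/ml of recombinant interleukin-8 (IL-8), a neutrophil-attracting chemokine. One protocol text of the labels mentions IL-8 in every sample, but the titles and the agent field name a control group without it, and groups follow the titles. Separate cultures are not stated in the labels, and the p-values therefore describe the spread between these arrays alone, which may be technical.

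A miRNA hairpin is cut into a 5p and a 3p arm, and the arm loaded into an Argonaute protein pairs with messenger RNAs mainly through its seed, bases 2 to 8. The clusters are known from many tissues. In muscle, miR-27 is known to repress Pax3, which keeps progenitors from differentiating, and myostatin. There, miR-23a is known to repress the ubiquitin ligases MuRF1 and atrogin-1 that drive atrophy, and miR-24 has been described to promote myoblast differentiation downstream of TGF-beta. Rats and mice have no IL-8 gene of their own, and related CXC chemokines fill its role.

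The sequences below show why the clusters can be compared form by form and where they cannot be told apart. They are the mature forms of the 6 members well above background, and of miR-24-1-5p, which was not, written 5′ to 3′ with the seed in capitals. They were taken from RefSeq (build GRCr8), which held 10 of the 11 arms and all 6 hairpins.
rno-miR-23a-3p: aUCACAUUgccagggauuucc
rno-miR-23b-3p: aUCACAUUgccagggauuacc
rno-miR-27a-3p: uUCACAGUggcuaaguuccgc
rno-miR-27b-3p: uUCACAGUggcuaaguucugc
rno-miR-24-3p: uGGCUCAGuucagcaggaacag
rno-miR-24-2-5p: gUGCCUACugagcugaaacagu
rno-miR-24-1-5p: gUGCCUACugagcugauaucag
The a and b forms share their seed and 20 of 21 bases. Counted from the 5′ end of the a form, they differ by U19A in miR-23 and by C19U in miR-27. Among the 693 rat mature forms of that reference, the seed UCACAUU belongs to the 2 miR-23 forms alone, UCACAGU to the 2 miR-27 forms alone and GGCUCAG to miR-24-3p alone. The 5p arms of miR-24 also share a seed but differ by U17A, U19C, C20A, A21G and G22U, counted from the miR-24-1-5p end.

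The hairpins of Mir24-1 and Mir24-2, with their annotated arms in capitals, show one 3p arm in different surroundings.
Mir24-1: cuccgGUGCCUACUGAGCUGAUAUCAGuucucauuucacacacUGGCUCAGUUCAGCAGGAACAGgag
Mir24-2: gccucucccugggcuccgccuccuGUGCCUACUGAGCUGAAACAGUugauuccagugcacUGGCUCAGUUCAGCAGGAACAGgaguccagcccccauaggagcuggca
No probe can therefore assign miR-24-3p to a cluster, whereas each 5p arm has its own probes. In the RefSeq gene table of the same build, Mir23b, Mir27b and Mir24-1 lie within the bounds of Aopep, which encodes aminopeptidase O. Mir24-1 also meets the bounds of Fancc and of Mir3074. No other gene of that table overlaps Mir23a, Mir27a or Mir24-2. Exons and introns of these genes were not analysed here. The array files place the probes on rn4 at chr19:25638460-25638809 and chr17:7350981-7351765.

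Probes for the a and b forms differ by a single base, as the 17-base probes show, written 5′ to 3′ with the differing base in capitals.
miR-23a-3p probe: ggAaatccctggcaatg
miR-23b-3p probe: ggTaatccctggcaatg
miR-27a-3p probe: gcGgaacttagccactg
miR-27b-3p probe: gcAgaacttagccactg
The differing base is the third of each probe, near its end. How much each probe binds the other form was not tested, so values of the a and b forms are uncertain as separate measurements. Brightness also differs between probes of one miRNA, so levels were compared between arrays and never between members.

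Across the arrays, 154 to 164 miRNAs were well above background in control and 168 to 180 with IL-8, and 167 entered the test. All arrays were scanned on 1 day. Each group had a slide of its own, so that slide and treatment cannot be told apart. The number of arrays limits the precision. None of the 14 arms of the striated muscle list (the miR-499, miR-208, miR-206, miR-133 and miR-1 families) was well above background on any array, while 6 of 8 arms of the fibroblast and smooth muscle list (miR-143, miR-145, miR-199a, miR-214) were tested. The labelled muscle cell type was thus not borne out by its defining miRNAs. The signals of the fibroblast and smooth muscle probes, in multiples of each array's 75th percentile, summed to 63.2 to 71.3 on the control arrays and 62.8 to 66.0 on the IL-8 arrays. In that list 0 of the 6 passed the limma test, at a median log2 change of -0.024, and its part in the results here was not tested. Of the lists for endothelium (2 arms), blood (6 arms) and epithelium (9 arms), 0 arms were well above background.

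Of the 11 arms, 6 were detected. They were the 3p arms of miR-23a, miR-23b, miR-27a, miR-27b and miR-24, and miR-24-2-5p as the only 5p arm. The 10 probes of the 3p arms gave signals of at least 480 intensity units on every array, and all were well above background on all 6 arrays. Each such probe had 10 spots per array. With outlier spots left out, their coefficient of variation lay between 1.77% and 8.48% within an array. None of these spots was saturated.

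**Figure D1:**
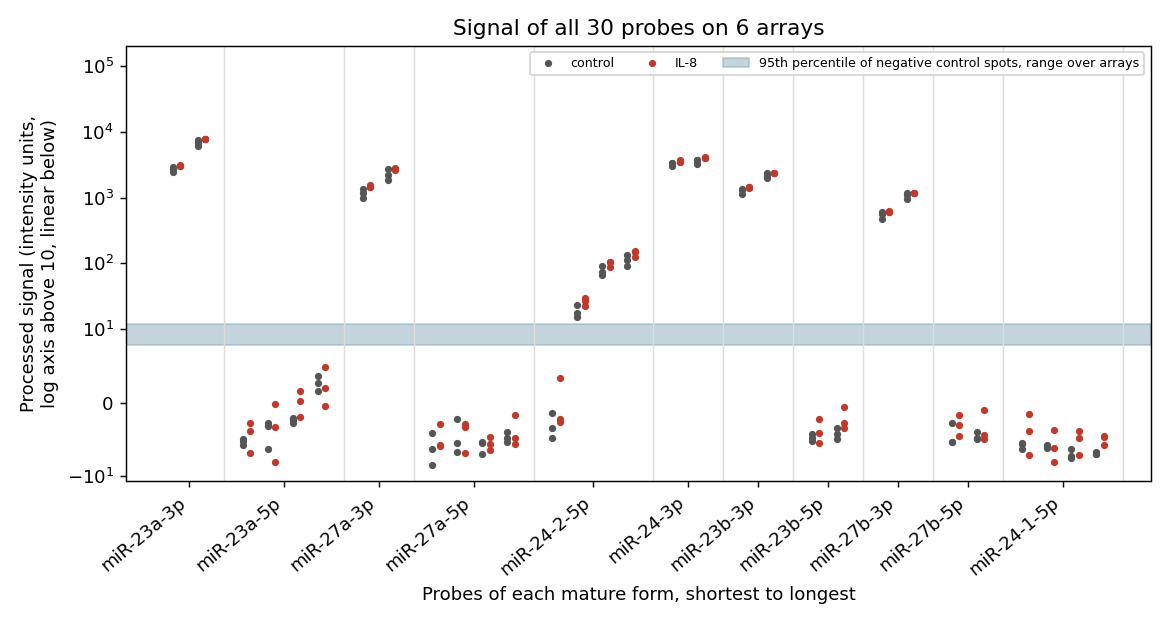
Processed signal (vertical axis, intensity units, logarithmic above 10 and linear below) of the 30 probes, grouped by mature form, with 1 point for each of 3 control and 3 IL-8 arrays. The 10 probes of the 3p arms lie at 480 or above on all arrays, while the 16 probes of the other 5p arms lie below the shaded band, the range over arrays of the 95th percentile of negative control spots.

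For miR-24-2-5p, the arm opposite miR-24-3p in the chromosome 19 hairpin, detection followed probe length. Its 17-base probe gave 92.3, 114 and 135 intensity units on the control arrays and 148, 153 and 126.03 on the IL-8 arrays. The 16-base probe gave 66.1, 75.3 and 91.8 in control and 105, 105 and 88.9 with IL-8. The 15-base probe, at 15.6 to 29.4, was well above background on 1 of 3 control arrays and on 3 of 3 IL-8 arrays. It entered the mean of this arm through the IL-8 arrays. The 14-base probe did not exceed 3.38 on any array.

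The other 5p arms, miR-23a-5p, miR-23b-5p, miR-27a-5p, miR-27b-5p and miR-24-1-5p, were not well above background in any of 96 probe values. On each array 434 single negative control spots gave a 95th percentile, between 7.92 and 11.9, and 0 of the 96 values lay above it. The values are averages over spots, which spread less than single spots. The highest was 4.79, from the longest miR-23a-5p probe on the first IL-8 array. For miR-24-1-5p, the counterpart of miR-24-2-5p on chromosome 17, the highest signal of its 4 probes was -1.55. No change with IL-8 could be measured for these 5 arms.

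The main comparison asked whether the miRNA profile differed between the IL-8 and the control arrays. None of the 6 detected members passed limma's test with Benjamini-Hochberg adjustment over 167 miRNAs at 0.05, where 12 of 167 passed (7.19%). At unadjusted p under 0.05, 0 of 6 members stood against 42 of 167 miRNAs (25.1%). With 6 members, a share of 7.19% would be fewer than 1, so the count of 0 does not set the members apart. The median log2 change of the 6 was -0.048, with 4 lower and 2 higher, signs that depended on the scaling, and that of all tested miRNAs was 0.019, with 71 lower and 96 higher. All levels below are log2 values relative to the 75th percentile of the detected probes of the same array, so that any change shared by all miRNAs is removed.

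**Figure D2:**
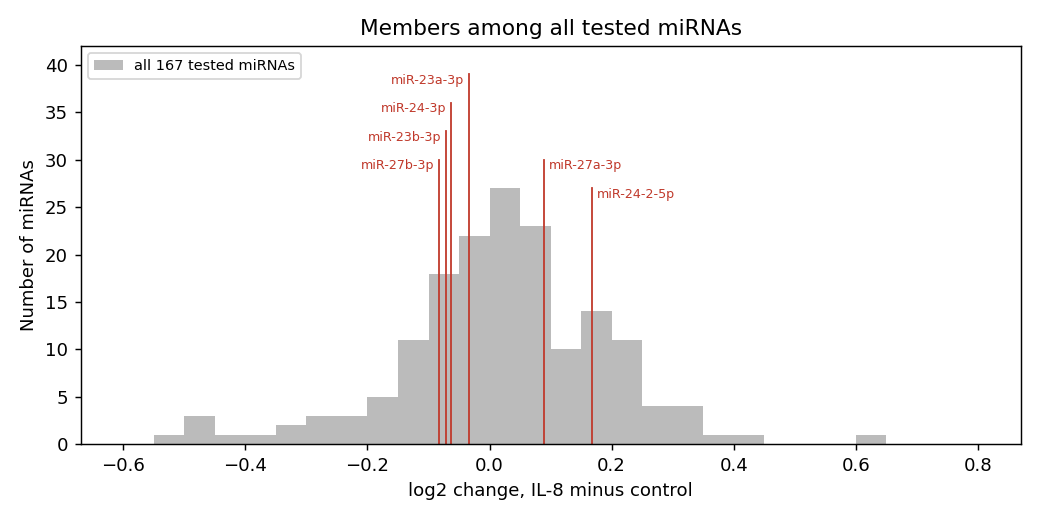
Distribution of the log2 change (IL-8 minus control, horizontal axis) over the 167 tested miRNAs, in bins of 0.05, with the number of miRNAs on the vertical axis. Red lines mark the 6 detected members, which lie between -0.082 and 0.17, within the bulk of the distribution.

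rno-miR-23a-3p comes from the first hairpin of the chromosome 19 transcript. It stood at 3.12, 3.17 and 3.21 on the control arrays and at 3.09, 3.15 and 3.16 on the IL-8 arrays. The groups overlapped, and the lowest control array lay below 2 of the 3 IL-8 arrays. The means were 3.17 ± 0.045 (SD, n = 3) and 3.14 ± 0.040 (SD, n = 3), a fold of 0.977 (95% CI 0.894 to 1.07, limma adjusted p = 0.787).

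Its relative on chromosome 17, rno-miR-23b-3p, stood at 1.75, 1.80 and 1.85 in control and at 1.69, 1.75 and 1.75 with IL-8. This was the only member whose groups did not overlap, by a margin of 0.00079 between the highest IL-8 and the lowest control array. Among all 167 tested miRNAs, 50 had groups without overlap (29.9%), so 1 of 6 is no more than the background share. The means were 1.80 ± 0.051 and 1.73 ± 0.032 (SD, n = 3 each). The fold was 0.952 (95% CI 0.871 to 1.04, limma adjusted p = 0.487).

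rno-miR-27a-3p, which shares its primary transcript with miR-23a, varied most among the 3p arms. Its control arrays stood at 1.61, 1.76 and 1.94, and its IL-8 arrays at 1.78, 1.92 and 1.87. The highest value of all 6 was a control array, so the groups overlapped. The fold was 1.06 (95% CI 0.920 to 1.23, limma adjusted p = 0.620), with a control SD of 0.16 against 0.072 with IL-8 (n = 3 each). Single control arrays set the size of the log2 change, which was 0.089 over all arrays, 0.010 without control replicate 1 and 0.17 without control replicate 3.

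rno-miR-27b-3p stood at 0.61, 0.73 and 0.75 in control and at 0.56, 0.65 and 0.64 with IL-8. Its first control array lay below 2 IL-8 arrays. The means were 0.70 ± 0.079 and 0.62 ± 0.052 (SD, n = 3 each), a fold of 0.944 (95% CI 0.853 to 1.05, limma adjusted p = 0.487).

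rno-miR-24-3p, the product of both clusters, stood at 2.83, 2.88 and 2.82 in control and at 2.72, 2.83 and 2.79 with IL-8. The second IL-8 array lay within the control range, above 2 control arrays. The fold was 0.958 (95% CI 0.875 to 1.05, limma adjusted p = 0.564).

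rno-miR-24-2-5p lay closest to background and had the widest interval of the 6. It stood at -3.27, -3.15 and -2.91 in control and at -2.89, -2.85 and -3.09 with IL-8. The third IL-8 array fell between the control arrays. The fold was 1.12 (95% CI 0.947 to 1.33, limma adjusted p = 0.379), from means of -3.11 ± 0.18 and -2.94 ± 0.13 (SD, n = 3 each). Leaving out single arrays gave log2 changes from 0.089 without control replicate 1 to 0.27 without control replicate 3. Neither was called, at limma adjusted p of 0.657 and 0.0502, the latter close to the threshold. Its log2 change was 0.17 over 3 probes and 0.12 over the 2 probes that stood well above background on every array. By probe it was 0.27 at 15 bases, 0.13 at 16 and 0.10 at 17. Its partner arm miR-24-3p had a log2 change of -0.062.

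**Figure D3:**
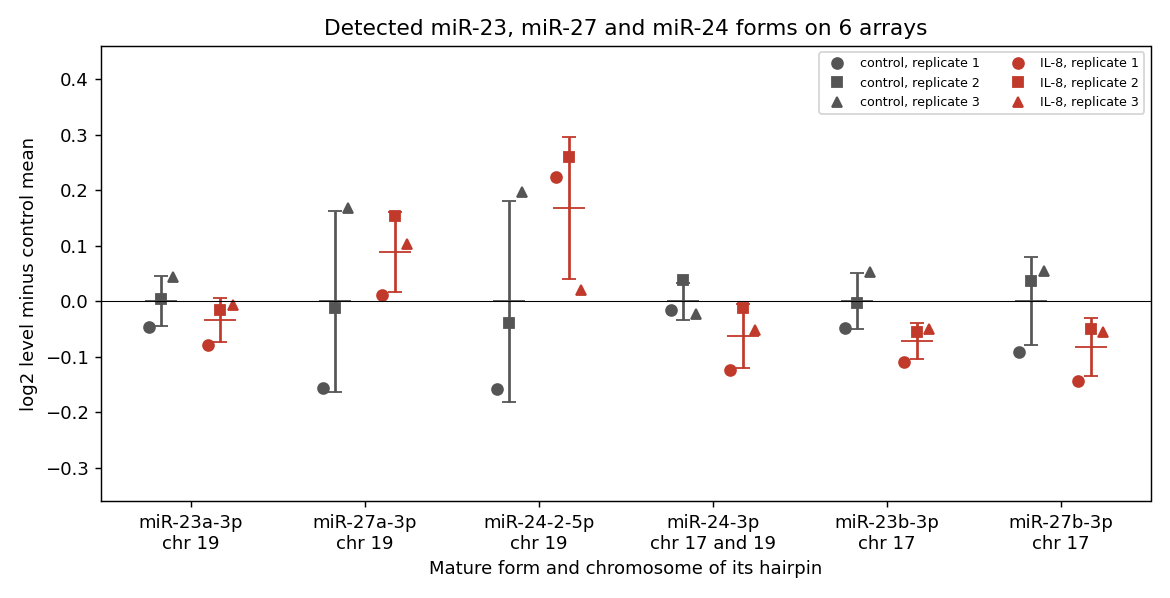
Log2 level of each detected member (horizontal axis, with the chromosome of its hairpin) minus its control mean (vertical axis), for the control arrays (grey) and the IL-8 arrays (red), 3 each, with bars for the mean and SD. The groups overlap for 5 of the 6 members, and miR-27a-3p and miR-24-2-5p spread more than the others.

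The probes of each 3p arm moved alike, which is no independent support, since the shorter lies within the longer. In all 5 arms the log2 changes of both probes had the same sign. They were -0.032 and -0.036 for miR-23a-3p, -0.062 and -0.081 for miR-23b-3p, and 0.12 and 0.055 for miR-27a-3p. Those of miR-27b-3p were -0.074 and -0.090, and those of miR-24-3p were -0.080 and -0.045.

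Most members had their lowest value of a group on the same array. How often other miRNAs did so was not analysed. The first control array was the lowest control array for 5 of the 6 members, miR-24-3p being the exception. The first IL-8 array was the lowest IL-8 array for 5 of the 6, the exception being miR-24-2-5p. Averaged over the 5 detected 3p arms and centred over arrays, the profile ran at -0.056, 0.029 and 0.075 in control and at -0.073, 0.020 and 0.0042 with IL-8. The spread within each group was thus larger than the difference of the group means, which was -0.032. The tested miRNAs nearest to this profile, by root mean square difference over the 6 arrays, were miR-186-5p (0.014), miR-130a-3p (0.019) and miR-143-3p (0.022). The median of that measure over the 161 other tested miRNAs was 0.098. The log2 changes of these 3 were -0.020, -0.049 and -0.059, with limma adjusted p of 0.894, 0.724 and 0.656.

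The clusters were compared through differences between members on the same array, which any scaling by a single factor per array leaves as they are. In means over the probes in use, the chromosome 19 forms lay higher relative to their chromosome 17 relatives with IL-8, by small amounts. Those probes had 16 and 17 bases for miR-27a-3p but 17 and 18 bases for miR-27b-3p. With probes of equal length, given below, the groups overlapped in part. How often differences between other miRNAs separate the groups was not analysed. Of single miRNAs, 50 of 167 (29.9%) did so, and slide and treatment cannot be told apart. With 3 arrays against 3, the exact two-sided permutation test used here has 20 splits and cannot give a p below 0.10, so it cannot pass 0.05 whatever the size of a difference.

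For miR-23a-3p minus miR-23b-3p, set to a control mean of 0, the control arrays stood at 0.0019, 0.0076 and -0.0094 and the IL-8 arrays at 0.029, 0.040 and 0.044. The groups did not overlap. The change was 0.038 on the log2 scale, with an SD of 0.0087 for control and 0.0075 for the IL-8 arrays (n = 3 each, exact permutation p = 0.10, adjusted over the 4 pairs 0.20). The spread of this difference between arrays was narrower than that of either member alone.

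For miR-27a-3p minus miR-27b-3p, the control arrays stood at -0.065, -0.049 and 0.11 and the IL-8 arrays at 0.15, 0.20 and 0.16. Here too the groups did not overlap, with the third control array close to the IL-8 arrays. The change was 0.17, with SDs of 0.099 and 0.027 (n = 3 each, exact permutation p = 0.10, adjusted 0.20).

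Within a cluster the groups overlapped over all arrays. For miR-23a-3p minus miR-27a-3p on chromosome 19, the control arrays stood at 0.11, 0.016 and -0.13 and the IL-8 arrays at -0.090, -0.17 and -0.11, a change of -0.12 (exact permutation p = 0.30, adjusted 0.40). That overlap rested on control replicate 3, without which the groups separated at a change of -0.19, while the change was -0.068 without control replicate 1. For miR-23b-3p minus miR-27b-3p on chromosome 17, they stood at 0.042, -0.040 and -0.0023 in control and at 0.034, -0.0070 and 0.0059 with IL-8. That change was 0.011 (exact permutation p = 0.90, adjusted 0.90), within the spread of the arrays. Its sign turned with quantile normalization and when control replicate 2 or IL-8 replicate 1 was left out.

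**Figure D4:**
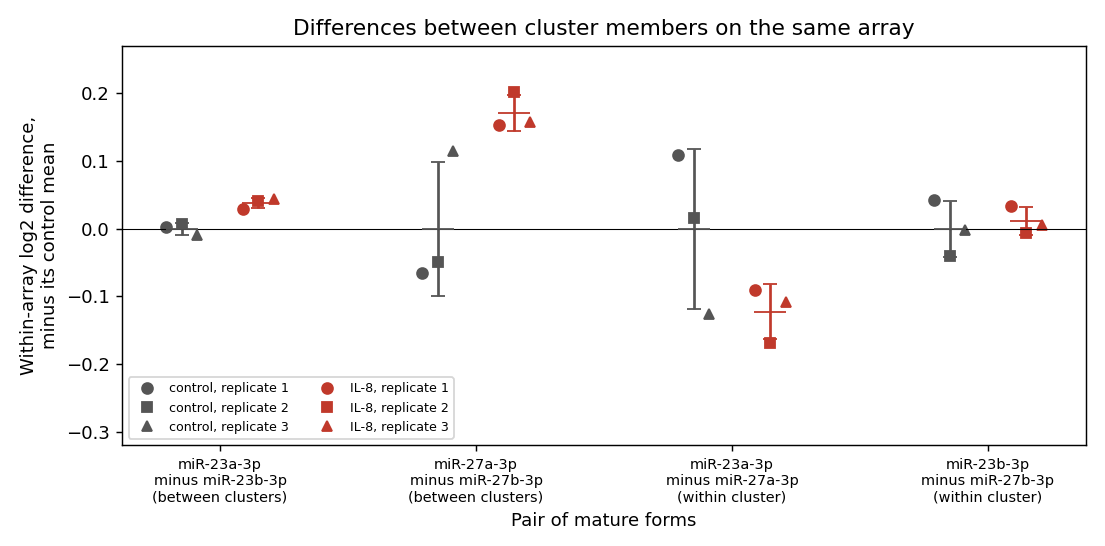
Within-array log2 difference between 2 members, minus its control mean (vertical axis), for the 4 pairs (horizontal axis), on 3 control arrays (grey) and 3 IL-8 arrays (red), with bars for the mean and SD. The IL-8 arrays lie above all control arrays for both pairs between clusters, by means of 0.038 and 0.17, and overlap them for both pairs within a cluster. How often pairs of other miRNAs separate was not analysed.

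Probes of equal length gave the between-cluster differences less cleanly. With the 17-base probes printed above, miR-23a-3p minus miR-23b-3p changed by 0.030, and the IL-8 arrays, at 0.0036 to 0.050, overlapped the control arrays, at -0.0070 to 0.0071. With the 18-base probes the change was 0.045, and the IL-8 arrays (0.031 to 0.055) lay above the control arrays (-0.019 to 0.022). For miR-27 the 17-base probes gave 0.13, with IL-8 arrays at 0.12 to 0.15 and control arrays at -0.077 to 0.14, which overlapped. The separation of the groups therefore depended on which probes were averaged.

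The direction of single members depended on the scaling between arrays. The 75th percentile of the detected probes was 440 to 497 intensity units on the control arrays and 540 to 569 on the IL-8 arrays. Without scaling the median log2 change over all 167 miRNAs was 0.25, all 6 members were higher with IL-8, and miR-24-2-5p was called higher (0.40, limma adjusted p = 0.0440). Its limma adjusted p ran from 0.0440 to 0.998 across the 16 alternatives. It was 1 of 52 miRNAs called without scaling. That call used the mean that includes its shortest probe in use. This probe was well above background on 1 of 3 control arrays and on 3 of 3 IL-8 arrays. Whether the call holds without this probe was not tested. Relative to the median of all tested miRNAs, the change of miR-24-2-5p was 0.15 with and without scaling, since any single factor per array cancels in that difference. With scaling and only probes well above background on every array, it was 0.11.

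**Figure D5:**
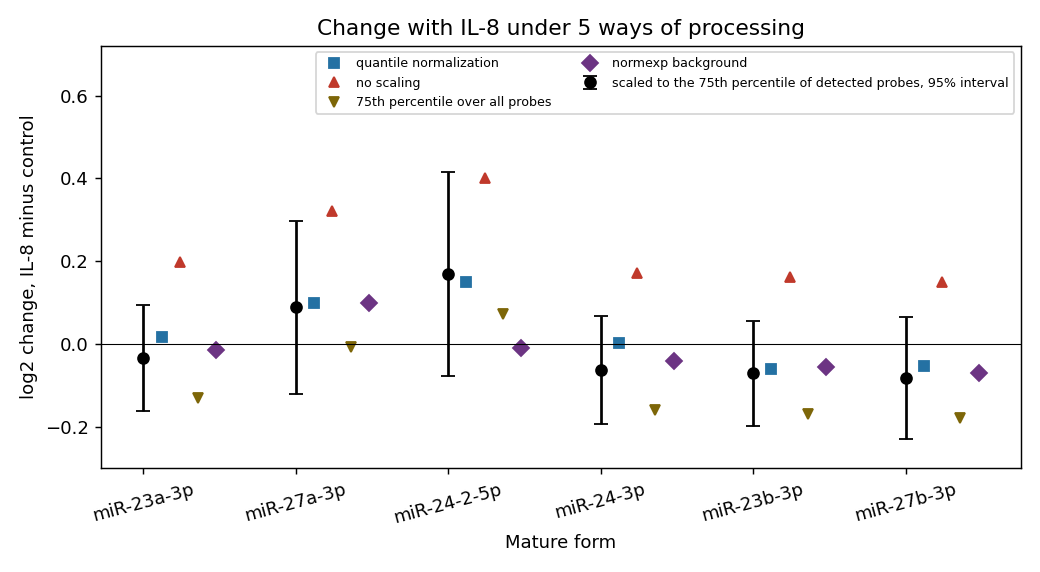
Log2 change with IL-8 (vertical axis) of the 6 detected members (horizontal axis), with 95% intervals from limma for the main scaling, and without intervals for quantile normalization, no scaling, the 75th percentile over all probes and the normexp background. Without scaling all 6 lie above 0, where the median over all tested miRNAs is 0.25, and with the 75th percentile over all probes 5 of 6 lie below it.

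Other miRNAs known to repress Pax3 or Pax7, or to act in muscle atrophy, were mostly not well above background. Of the list of Pax3 or Pax7 repressors, 4 arms, those of miR-1 and miR-206, were measured and 0 were well above background on any array. No miRNA name on the array matched miR-486, which belongs to both lists, so it could not be analysed here. Of the 4 arms of the atrophy list, from miR-29b and miR-182, miR-29b-3p alone was tested. That miRNA, which is known to repress collagen genes and to promote atrophy, had means of 0.61 ± 0.27 for control and 0.83 ± 0.11 for IL-8 (SD, n = 3 each). Its log2 change of 0.22 ± 0.13 (SE) did not pass (limma adjusted p = 0.378).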

How the data were processed

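The 6 arrays were 1-colour Agilent miRNA arrays of Cy3-labelled total RNA. Per the labels' protocols, RNA integrity numbers lay between 9.5 and 10.0. The authors deposited spot intensities, extracted with Agilent Feature Extraction 10.10.1.1 per the submitters' processing notes, background-subtracted and spatially detrended per the file headers and not normalized between arrays. The deposited value table equalled the software's total probe signal in all 15095 values per array (relative tolerance 0.0001), so it is linear, uncentred intensity, with column medians of -0.529, -1.35, -1.17, 0.307, -0.802 and -1.18.

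Spots of a probe were averaged without outlier spots. The scaling divisor of an array was the 75th percentile of the 264 probes that the software called well above background, in over 50% of spots, on every array. Scaled values were turned into log2 with a floor at -5.45, the lowest signal of a probe well above background. No member value in use lay at the floor. Tested miRNAs had 1 or more probes well above background throughout a group of 3 arrays, and their value was the mean of such probes. limma 3.58.1 (lmFit, eBayes) in R 4.3.3 with data.table (1.17.8) was fitted over all 167 and checked on simulated data. Differences between members were tested by exact two-sided permutation over arrays. Named were all members and the 3 miRNAs of nearest profile. Members, lists and tests were chosen with earlier results of these data known.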

Additional observations from a re-analysis of the deposited data

How the results depend on the processing

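Over 16 alternatives no member was called, except miR-24-2-5p without scaling, which made the members' count 1. That call was not tested without the shortest probe in use of this arm. The miRNAs called among all tested were 12, against 24 (1 higher, 23 lower) with the normexp background, 52 (all higher) without scaling, 3 with the replicate block, and 0 with the 75th percentile over all probes or no filter. That percentile lies among probes that were not well above background. Leaving out 1 array gave 1 to 30, with 3 in the absence of control replicate 2, 30 of control replicate 3, 5 of IL-8 replicate 1, 1 of IL-8 replicate 2 and 4 of IL-8 replicate 3. Whether the replicate numbers pair the samples cannot be decided from 3 arrays per group. Deviations of same-numbered samples correlated at 0.24, 0.32 and 0.079 across 167 miRNAs, which are not independent. Those of differently numbered samples correlated at -0.595 to 0.352. With the replicate block 0 members were called. The slide could not be fitted as a block.

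Signs turned, none past the threshold, for miR-23a-3p at 0.017 with quantile normalization and 0.20 without scaling, and for miR-24-3p at 0.0018 and 0.17. Without scaling they also turned for miR-23b-3p (0.16) and miR-27b-3p (0.15). For miR-27a-3p the 75th percentile over all probes gave -0.0086, and for miR-24-2-5p the normexp background gave -0.010, where the median of all tested miRNAs was -0.071. The causes of these turns were not tested. The difference miR-23b-3p minus miR-27b-3p turned to -0.0072 with quantile normalization and ran from -0.0090 to 0.032 with 1 array left out. The other 3 differences kept their direction, miR-23a-3p minus miR-23b-3p at 0.033 to 0.078, miR-27a-3p minus miR-27b-3p at 0.14 to 0.23 and miR-23a-3p minus miR-27a-3p at -0.19 to -0.068. Alternatives that change only a factor per array, the floor, the probe filter or the block leave these differences as they are. Their agreement was fixed in advance. With the replicate block the smallest possible exact permutation p of a difference is 0.25.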

Other observations

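The rn4 positions in the array files locate the hairpins, and their exact bases are uncertain. In RefSeq all 6 hairpins lie on the minus strand, and the 3′ ends of miR-23a-3p and miR-27a-3p are 164 bases apart on GRCr8, against 156 in the array files. Counting each arm from the low-coordinate end of its GRCr8 hairpin, whatever the strand, gives 156 as well. This count also equalled the files' distance for the other neighbours, at 142 for miR-27a-3p and miR-24-3p, 236 for miR-23b-3p and miR-27b-3p (242 by strand) and 494 for miR-27b-3p and miR-24-3p (491 by strand). No sequence was read by these positions.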
